A study of Sus scrofa with 4 samples.

Results

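The data describe 10 genes by which endothelial cells, the lining of blood vessels, are recognised and by which they hold leukocytes, in minipig heart tissue after myocardial infarction (MI). They fall into 4 activation genes (SELE, SELP, VCAM1 and ICAM1) and 6 identity genes (PECAM1, VWF, CDH5, KDR, TEK and ENG). Members were taken by gene symbol from the annotation of the array platform, which gave all 10 genes of the 6765 with a probe set of their own symbol, and 17 of 24123 probe sets. The activation genes and ENG have 1 probe set each, PECAM1, CDH5 and KDR have 2 each, and VWF and TEK have 3 each.

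The tissue came from female Chinese Bama minipigs aged 4 months whose left circumflex artery had been ligated for good, and 4 Affymetrix Porcine Genome Arrays were made of it. Of the myoblast group, which had human myoblasts injected at the infarct border in DMEM medium and was given Cyclosporin A, 1 array holds border and 1 infarct tissue, and likewise of the control. The sample labels call the control untreated, whereas the methods describe both a control treatment group, which got medium and Cyclosporin A, and an MI group, which got neither. In its array results the study compares the myoblast group with the control treatment group. Its printed fold changes for TNF and CCL2 equal those between these arrays (border zone for TNF, infarct zone for CCL2). By the study's account medium and Cyclosporin A were thus common to both groups, though the label untreated was not reconciled with that. The number of minipigs pooled or sampled per array and the time of sampling are in neither source. Since no condition was measured on a further array, replicates are lacking. No error between minipigs, test or p-value can be given, and a ratio below compares 2 arrays. The comparison asks whether the endothelial genes of heart tissue differed with myoblast transplantation in each zone, and whether the activation genes did so apart from the identity genes.

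When endothelium is activated, for example by TNF or interleukin 1, it places adhesion molecules on its surface. Selectins catch rolling leukocytes, and the immunoglobulin-type molecules ICAM1 and VCAM1 bind leukocyte integrins and hold the cells firmly. SELE is made on demand and is scarce in resting vessels, while SELP is stored in endothelial granules and also in platelets. The identity genes, in contrast, are active in resting endothelium and serve its junctions, its clotting function and its growth factor receptors.

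Values are MAS 5.0 signals in linear units, which had a common trimmed mean, and the array medians lay between 137 and 142. A ratio is myoblast over control within a zone, with 2-fold, a threshold also used in the methods, as the call. Dim probe sets gave wide ratios. Between the border and infarct zone arrays of the control alone, 43.4% of probe sets with a mean signal under 64 were at least 2-fold apart, against 0.138% of those over 1024. Heart muscle RNA was abundant on every array, with MYH7 (cardiac beta myosin) at 27731 and 26177 on the myoblast arrays and 28123 and 34384 on the control arrays. Such pairs give the border zone first and the infarct zone second throughout. In such bulk tissue the cell type that gave a member's signal is not known, for the activation genes as well. A different number of cells and a different amount of RNA per cell cannot be told apart either.

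**Figure D1:**
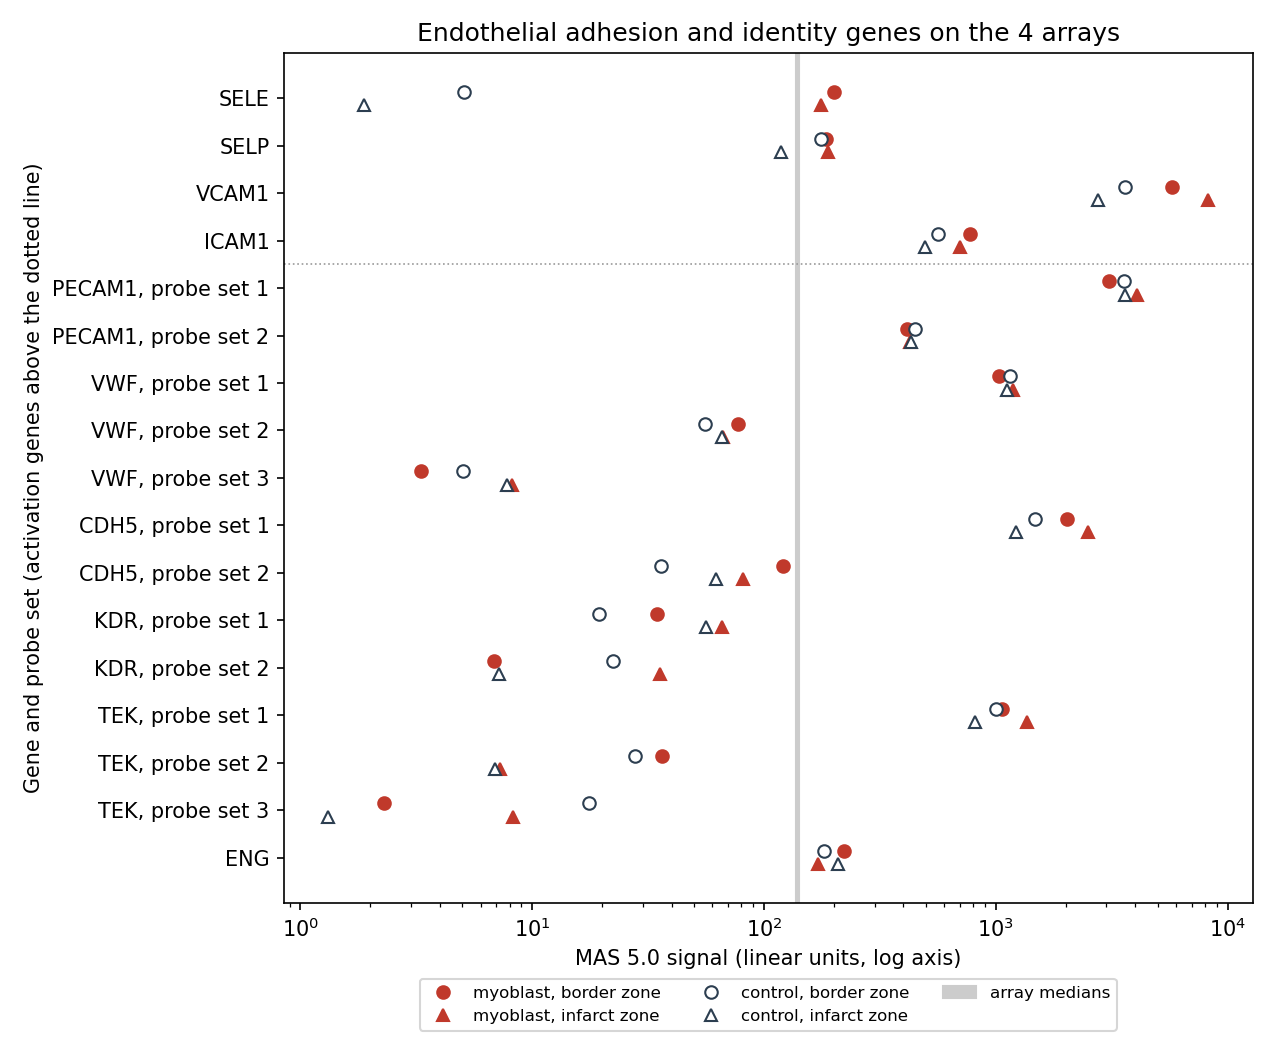
MAS 5.0 signal (x axis, log scale) of each of the 17 probe sets (y axis) on the 4 arrays; filled red symbols are myoblast arrays, open dark symbols control arrays, circles the border zone and triangles the infarct zone, and the grey band spans the array medians. SELE shows the widest gap between myoblast and control arrays. SELP, VCAM1, ICAM1, both CDH5 probe sets, the brightest TEK and the second VWF probe set also lie higher on both myoblast arrays than on both control arrays. The share of all probe sets with this order was not counted. Symbols of PECAM1 and of the brightest VWF probe set lie close together.

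SELE (E-selectin) had the largest ratios of the members as deposited, over very dim control signals. Its signals were 200.5 and 176 on the myoblast arrays, against 5.09 and 1.89 on the control arrays, so both myoblast signals lay above both control signals. The share of all probe sets with this order was not counted, here or for the genes below. The ratios were 39.3 (border) and 93.1 (infarct), log2 ratios of 5.30 and 6.54, which ranked 7 and 2 among the 24123 probe sets. SELE was 1 of 139 genes at least 2-fold higher in both zones, or 2.05% of all genes. The control signals were at the bottom of the arrays, at percentiles 6.02 and 1.44 of all probe sets, while the myoblast signals were at percentiles 56.1 and 54.0. The size of the ratio therefore rests on signals near the lower limit of the arrays. When values under an array's 25th percentile were set to that percentile, the mean log2 ratio over zones was 2.34, against 5.92 without a floor, and with a floor at the array median it was 0.45, under 2-fold. With that floor SELE no longer led the members, since VCAM1 (1.12), CDH5 (0.74) and ICAM1 (0.48) had larger mean log2 ratios.

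SELP (P-selectin) did not follow the values of SELE. Its signals were 186 and 189 on the myoblast arrays, against 177 and 118 on the control arrays. The arrays were alike except for that of the control infarct zone, which was lower than the other 3 and the only one under its array median. Both myoblast signals lay above both control signals here too. The ratios were 1.05 and 1.59, both under 2-fold.

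VCAM1, the ligand of the integrin VLA-4 on monocytes and lymphocytes, was the brightest activation gene. Its signals were 5747 and 8269 on the myoblast arrays, against 3618 and 2762 on the control arrays, and both myoblast arrays exceeded both control arrays. The ratios were 1.59 (border) and 2.99 (infarct), and the infarct ratio passed 2-fold. At this brightness large ratios were scarce: of 3619 probe sets with a mean signal over 1024, 55 were at least 2-fold higher in the infarct zone (1.52%), and 18, VCAM1 included, had a ratio at least as high as that of VCAM1. The zones ran in opposite orders within the groups, with 1.44 times as much VCAM1 signal in the infarct as in the border zone after myoblast transplantation, against 0.763 times in controls.

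ICAM1, which binds the integrins LFA-1 and Mac-1 of leukocytes, had the most even ratios of the activation genes. Its signals were 771 and 704 on the myoblast arrays, against 562 and 496 on the control arrays. Both myoblast signals lay above both control signals, with ratios of 1.37 and 1.42, neither of which reached 2-fold.

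**Figure D2:**
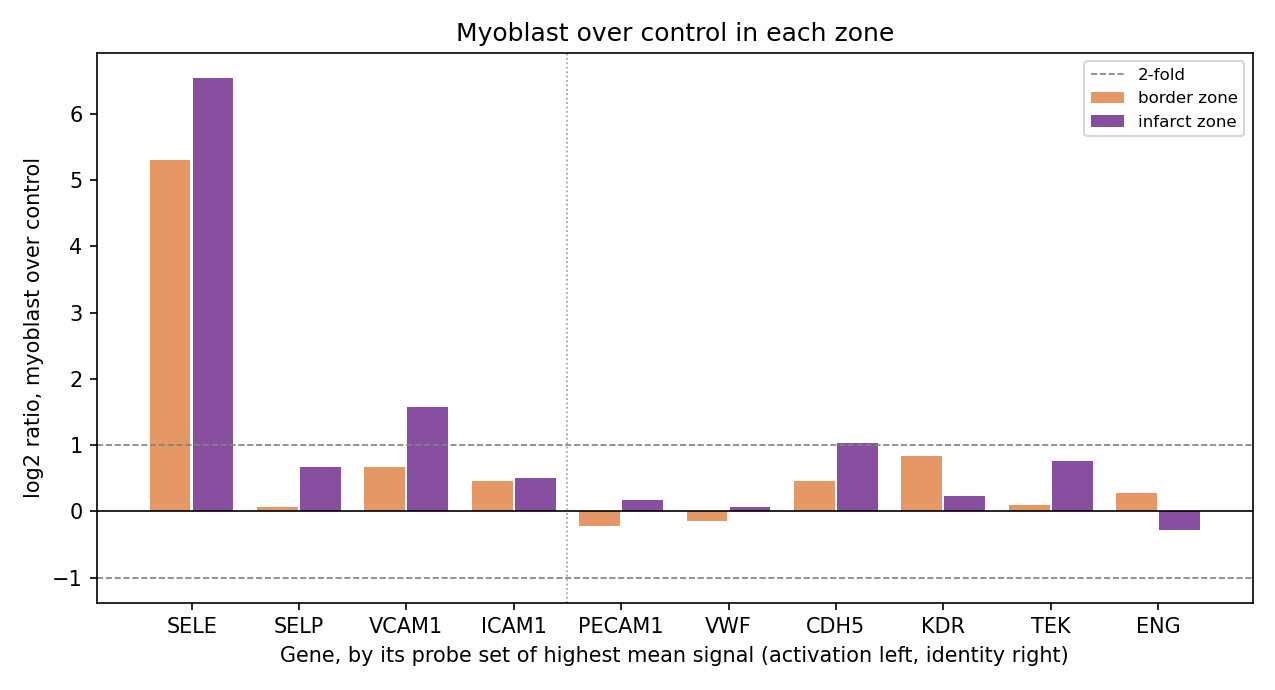
Log2 ratio of myoblast over control (y axis) in the border zone (orange) and the infarct zone (purple) of each gene by its brightest probe set (x axis), with 1 array on each side of a ratio and hence no error bars. SELE reached 5.30 and 6.54, VCAM1 1.58 in the infarct zone and CDH5 1.03 there, and the other bars stayed within the dashed lines at 2-fold.

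Among the identity genes, the junction gene CDH5 (VE-cadherin, the cadherin of endothelial adherens junctions) was the most clearly higher. Its brighter probe set gave 2019 and 2489 on the myoblast arrays, against 1475 and 1222 on the control arrays. Both myoblast arrays were above both control arrays, with ratios of 1.37 and 2.04. The infarct zone value was just past the threshold, and with arrays centred on their medians its log2 ratio was 0.98, under 2-fold, against 1.03 as deposited. The dimmer CDH5 probe set had signals of 121 and 81.4 on the myoblast arrays, against 35.9 and 62.3 on the control arrays. Its signals too were higher on both myoblast arrays than on both control arrays. It lay under the array median on all 4 arrays, with ratios of 3.37 and 1.31, so the probe sets shared the direction but differed as to which zone had the larger ratio.

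PECAM1 (CD31), an adhesion molecule of endothelial contacts that platelets and leukocytes also carry, differed little. The brighter probe set gave 3085 and 4062 on the myoblast arrays, against 3587 and 3623 on the control arrays, and the control values lay between the myoblast values. Its ratios were 0.860 and 1.12. The other probe set read 413 to 450 and gave ratios of 0.917 and 0.985.

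VWF (von Willebrand factor, which tethers platelets and is stored with P-selectin) likewise differed little on its brightest probe set. That probe set had signals of 1031 and 1181 on the myoblast arrays, against 1146 and 1124 on the control arrays, and the groups overlapped. The ratios were 0.899 and 1.05. A second probe set, under the median on all arrays, had signals of 77.2 and 66.5 on the myoblast arrays, against 55.9 and 65.9 on the control arrays, ratios of 1.38 and 1.01. Its myoblast signals both lay above both of its control signals. The third had signals of 8.22 or less on every array and ratios of 0.660 and 1.06.

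The receptors differed among themselves. TEK (TIE2, the receptor of the angiopoietins) had signals of 1066 and 1368 on its bright probe set with myoblasts, against 1001 and 812 in controls. Both myoblast signals lay above both control signals. The border zone arrays were nearly equal (ratio 1.06), while the infarct zone ratio was 1.69, under 2-fold, and as for VCAM1 and CDH5 the infarct zone was the higher zone with myoblasts and the lower one in controls. The other TEK probe sets were dim. One had ratios of 1.31 and 1.05 at signals of 36.2 or less, and the other 0.131 and 6.25 at signals of 1.32 to 17.6.

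ENG (endoglin, a co-receptor for TGF-β family ligands) had signals of 221 and 171 on the myoblast arrays, against 183 and 208 on the control arrays. The groups overlapped, and the ratios were 1.21 (border) and 0.822 (infarct). KDR (VEGF receptor 2), by contrast, was dim on both of its probe sets. Its brighter probe set gave 34.8 and 66.0 on the myoblast arrays, against 19.5 and 56.1 on the control arrays, under the array median on all 4 arrays, with ratios of 1.79 and 1.18. The infarct zone was higher than the border zone in both groups, at 1.90 times with myoblasts and 2.88 times in controls. The dimmer KDR probe set read 6.88 to 35.8 and gave ratios of 0.308 and 4.96.

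**Figure D3:**
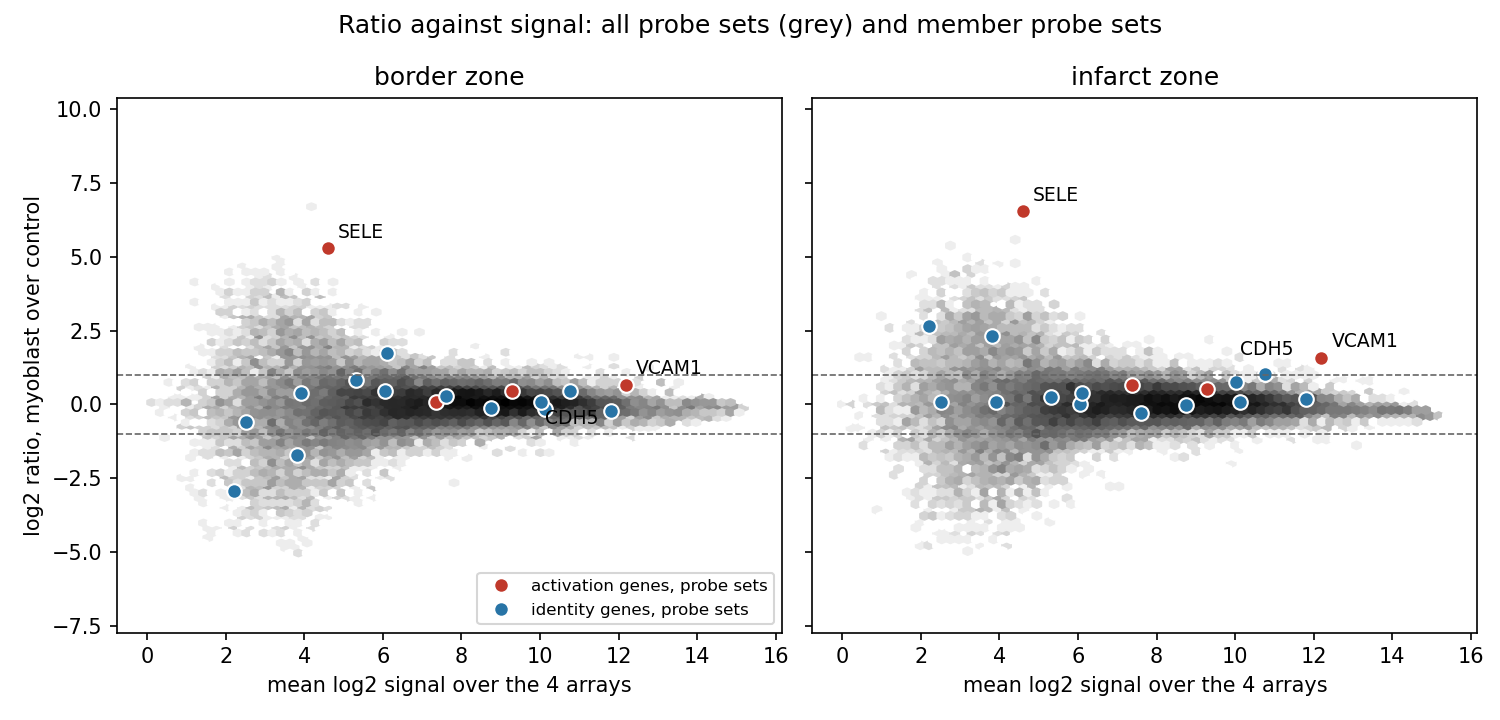
Log2 ratio of myoblast over control (y axis) against mean log2 signal over the 4 arrays (x axis) in the border zone (left) and the infarct zone (right); grey cells hold all 24123 probe sets, darker for more, red points are activation and blue points identity probe sets, and dashed lines mark 2-fold. Grey ratios fan out at low signal, where the dim KDR and TEK probe sets lie, and SELE lies above the grey fan's bulk in both zones.

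By gene, each taken by its brightest probe set, 1 of the 10 members was at least 2-fold higher in the border zone (SELE), where 6.37% of all genes were, and 3 of 10 were in the infarct zone (SELE, VCAM1 and CDH5), where 6.44% were. None of the 10 was at least 2-fold lower, against 5.71% and 5.69% of all genes. All 4 activation genes had ratios above 1 in both zones. Of the identity genes, CDH5, TEK and KDR had both ratios above 1, PECAM1 and VWF were below 1 in the border and above 1 in the infarct zone, and ENG the reverse. Over all probe sets of the array, 39.5% had ratios on opposite sides of 1 in the zones, and 6 of the 17 member probe sets did.

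Over probe sets, 2 of 17 were at least 2-fold higher in the border zone (SELE and the dim CDH5 probe set), where 9.95% of all probe sets were, and 2 of 17 at least 2-fold lower (dim KDR and TEK probe sets), where 10.4% were. In the infarct zone 5 of 17 were at least 2-fold higher, beside 10.5% of all probe sets, and none lower, beside 9.58%. Among these 5 were the same dim KDR and TEK probe sets that were lower in the border zone. These counts are to be read by brightness. Of probe sets with a mean log2 signal above the mean of the array medians, 4.61% were past 2-fold in either direction for the border arrays and 4.29% for the infarct arrays, against 35.9% and 35.7% of those below it. By that mean SELE counts as dim, since its control signals are so small.

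The activation genes had median log2 ratios of 0.56 (border) and 1.13 (infarct). The identity genes had medians of 0.18 and 0.20, and all 6765 genes 0.02 and 0.00. Activation thus exceeded identity by 0.38 and 0.93 on the log2 scale, with only 4 and 6 genes behind the medians. The identity median in the border zone depended on the dim probe sets: with all probe sets of a gene averaged it was -0.13. With signals floored at the array medians, the activation median in the infarct zone was 0.48, under 2-fold, and activation exceeded identity by 0.44 (border) and 0.36 (infarct), so that the infarct zone no longer had the larger difference.

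The control zones also differed for the activation genes. All 4 had less signal in the infarct than in the border zone of the control, at 0.371 (SELE), 0.670 (SELP), 0.763 (VCAM1) and 0.883 (ICAM1) times. After myoblast transplantation the same genes were at 0.878, 1.02, 1.44 and 0.913 times. The median log2 difference of infarct over border zone was -0.05 with myoblasts and -0.48 in controls for the activation genes, 0.33 and -0.01 for the identity genes, and 0.04 and 0.03 for all genes. The larger infarct zone ratios of SELE, SELP and VCAM1 share these lower control infarct values, since a single control array stands under each. That of VCAM1 also holds its higher infarct signal with myoblasts, at 1.44 times the border zone.

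The genes whose pattern over the 4 arrays was nearest to that of a member, by Euclidean distance of log2 signals centred on their own mean among 10099 probe sets with 1 symbol, were sought for the members at least 2-fold apart in the mean of the zones, SELE and VCAM1. For SELE they were RBP7 (distance 1.38), EDDM3B (2.34) and LOC100624460 (2.68), the last 2 of them under the array median on all arrays. RBP7, a retinol-binding protein, had signals of 174 and 379 on the myoblast arrays, against 10.3 and 6.10 on the control arrays. For VCAM1 the nearest was LGALS3 (galectin-3, a lectin abundant in macrophages) at a distance of 0.07. LGALS3 had signals of 1434 and 2005 on the myoblast arrays, against 935 and 697 on the control arrays, ratios of 1.53 and 2.88. EWSR1 (0.10) and INSL3 (0.18) followed, both under the array median on all arrays. With only 4 arrays, many probe sets can resemble one another.

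Other endothelial genes differed in direction among themselves. Of 18 further genes of adhesion, junctions and permeability, 12 were measured, 6 with both ratios above 1 and 4 with both below 1, and a single one passed 2-fold, TJP1 in the border zone at signals under the array median (median log2 ratios 0.16 and 0.28). CD151, a tetraspanin that partners integrins, had ratios of 1.89 and 1.28, and CLDN5, the claudin of endothelial tight junctions, 1.38 and 1.69. JAM3, a junctional adhesion molecule, had 0.798 and 0.628, and CD34, a sialomucin of endothelial and progenitor cells, 0.981 and 0.601.

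Endothelial receptors and signalling genes lay lower rather than higher, with 9 of 15 measured genes below 1 in both zones and 3 above (medians -0.29 and -0.41). AQP1, the water channel of microvessels, showed signals of 3101 and 3365 on the myoblast arrays, against 6159 and 6221 on the control arrays, ratios of 0.503 and 0.541. CAV1, the coat protein of caveolae, had 0.817 and 0.716. TNFRSF1A, the main TNF receptor, and EGFL7, a secreted endothelial factor, were close to 1 (1.10 and 1.05, and 1.03 and 1.06). At least 2-fold lower were 2 of the 15 for the border (TIE1 and CALCRL) and 1 for the infarct zone (TIE1), beside 5.71% and 5.69% of all genes, at signals under the array medians. At least 2-fold higher was 1, EDNRB, an endothelin receptor, in the border zone, with ratios of 2.17 and 1.41, beside 6.37% of all genes. Its control signals, 69.7 and 131, lay under the array medians.

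A list of endothelial growth factors and inducing cytokines, which holds ligands of KDR, TEK and ENG but also of other receptors, had 9 of 14 symbols measured (GDF2 is listed under an older name too), with medians of -0.03 and -0.12. VEGFA, the ligand of KDR, had ratios of 0.963 and 1.24, and VEGFB, which binds FLT1, 0.981 and 0.848. ANGPT2, a context-dependent ligand of TEK, had 1.13 and 1.28, and TGFB1 0.952 and 0.837. ANGPT1, the activating ligand of TEK, had 2.23 and 1.03, and was not above the median on all arrays. TNF, an inducer of the adhesion genes, was at 0.190 and 0.345 times control, but at signals of 9.21 and 14.0 on the myoblast arrays, against 48.6 and 40.5 on the control arrays, all far under the array medians. IL1A, also dim, was at 1.24 and 3.04 times control, and IL1B, by its brightest probe set, at 0.665 and 0.917 times. The study printed a lower fold change for IL1B, which neither ratio equals. TNF and IL1B were thus lower in both zones and IL1A higher, and none of them lay above the median on all arrays. The 7 of 15 endothelial transcription factors measured had medians of 0.15 and -0.15; KLF4 had ratios of 1.11 and 1.37, HEY2 log2 ratios of -0.04 and 0.58, and GATA2 ratios of 1.19 and 0.825.

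Genes that cytokines induce in endothelium, as they do SELE and VCAM1, were at least 2-fold higher for 5 of 10 measured genes (of 12 symbols, CXCL8 being listed under an older name too) in each zone, beside 6.37% and 6.44% of all genes, with 1 lower in the infarct zone (medians 1.15 and 0.96). The chemokine CCL2 had ratios of 5.52 and 5.63 and CXCL2 3.37 and 8.53, while F3 (tissue factor) had 0.542 and 0.440. In each zone 3 of the 5 were not above the median on all arrays (CXCL8, IL6 and CSF3 in the border zone, and IL6, CSF2 and PTGS2 in the infarct zone), and among dim probe sets large ratios were common. These genes are not particular to endothelium. The NF-κB pathway, which drives the adhesion genes, was covered by 4 of 13 genes, with medians of -0.35 and 0.08, and no ratio reached 2-fold. Both medians draw on NFKB1, whose signals were 6.65 or less on every array. IKBKG, a kinase regulator, had ratios of 1.38 and 1.42, and the inhibitors NFKBIB 0.826 and 0.657 and NFKBIA 0.722 and 1.04. Of the leukocyte receptors for the adhesion molecules, 4 of 11 were measured, with medians of 0.64 and 0.38. ITGB1, the beta chain of VLA-4 and by far the brightest of them, had ratios of 1.03 and 1.10. ITGB2, the beta chain of LFA-1 and Mac-1, had signals of 205 and 212 on the myoblast arrays, against 87.0 and 137 on the control arrays, ratios of 2.36 and 1.55. The other measured ones were dim, with ITGAM, the alpha chain of Mac-1, at ratios of 3.25 and 0.668 and ITGB7 at 0.820 and 11.9.

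**Figure D4:**
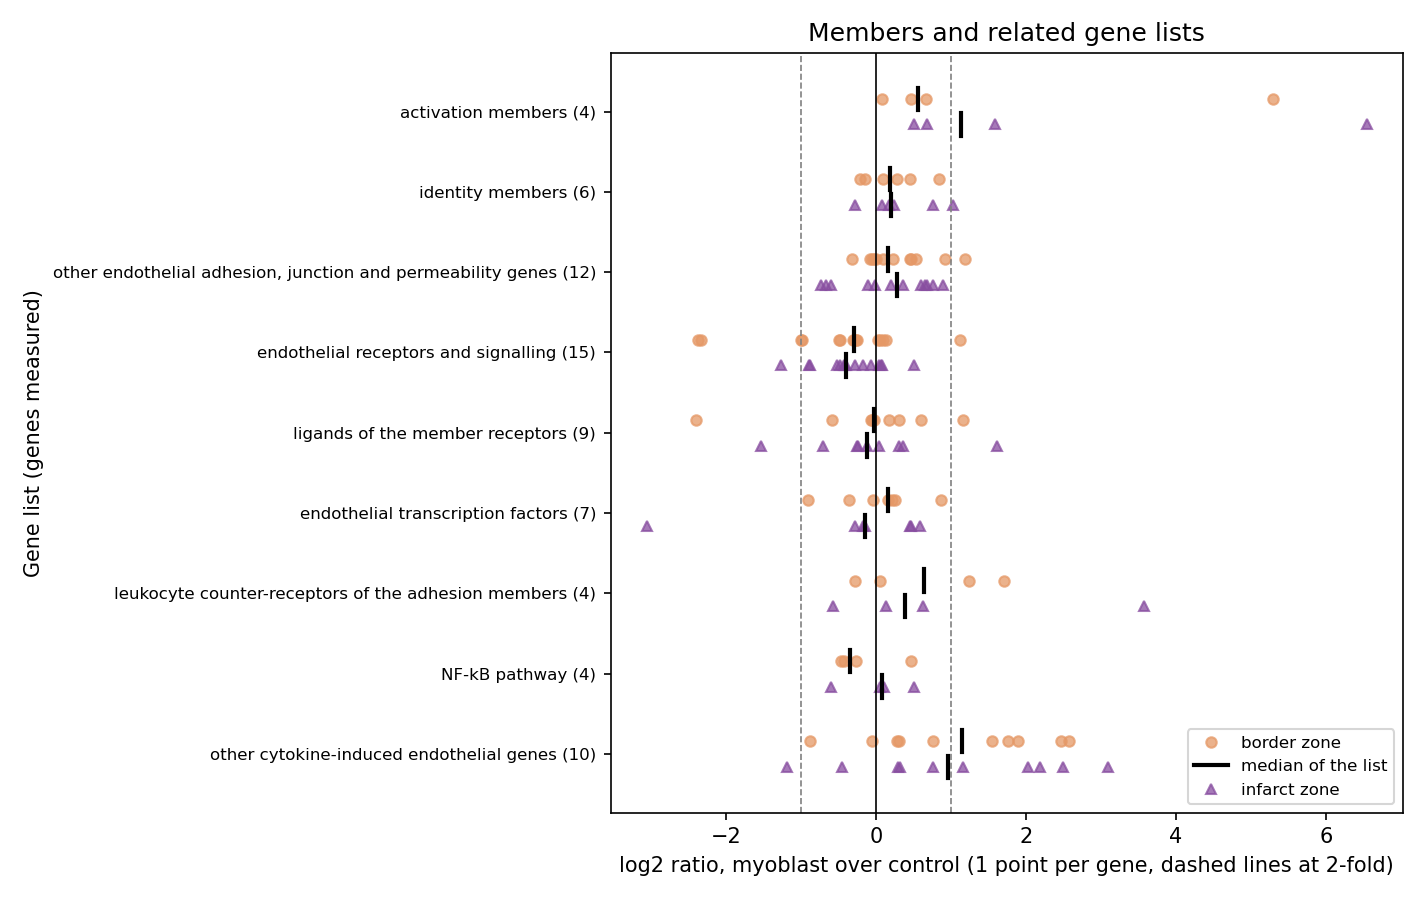
Each measured gene's log2 ratio, myoblast over control (x axis, dashed lines at 2-fold), of the members and of related gene lists (y axis), as orange circles for the border zone and purple triangles for the infarct zone, with black bars at the list medians. The activation medians lie at 0.56 and 1.13 and those of other cytokine-induced genes at 1.15 and 0.96, and those of endothelial receptors and signalling genes at -0.29 and -0.41.

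Markers of other cell types also differed between the groups, and their part in the results was not tested. Of 10 macrophage and monocyte markers 6 were measured, 4 of them higher in both zones, and their summed signal was 5024 and 6208 on the myoblast arrays, against 3870 and 4249 on the control arrays. Among them VSIG4 had ratios of 1.85 and 1.48 and AIF1 1.62 and 1.38. CD163 (0.792 and 1.39) and the dim CD14 (0.781 and 2.76) were lower in the border and higher in the infarct zone. The 5 of 8 neutrophil markers measured summed to 339 and 390 on the myoblast arrays, against 212 and 193 on the control arrays, and none lay above the array median on all arrays. Higher in both zones were 2, CHI3L1 (1.66 and 2.50), the largest part of each sum, and S100A9 (1.95 and 8.28). S100A8 was lower in both (0.915 and 0.769), and the others went opposite ways in the zones. Platelet markers, 4 of 8, summed to 379 and 462 with myoblasts and 540.2 and 423 in controls, and ITGB3 had ratios of 0.821 and 1.35. None of the 4 was higher in both zones. Lower in both were 2, PPBP (0.968 and 0.299) and ITGA2B (0.715 and 0.646), at signals under the array medians. Smooth muscle and pericyte markers, 5 of 8, summed to 26321 and 25262 with myoblasts and 25038 and 19654 in controls, with TAGLN at ratios of 1.83 and 1.95, ACTA2 at 1.05 and 1.73, RGS5 at 0.714 and 0.768 and CNN1 at 0.889 and 0.879. Lymphatic endothelium, 3 of 5 markers, summed to 2758 and 2814 with myoblasts and 1386 and 1374 in controls, most of it PDPN, which other cells also express (ratios 2.05 and 2.15), while LYVE1 in log2 ratios was at 0.02 and 0.59. Cardiomyocyte markers, 8 of 9, were below 1 in both zones for 7, and summed to 152286 and 159823 with myoblasts and 177589 and 202235 in controls, with MYL3 at ratios of 0.719 and 0.754 and TNNT2 at 0.765 and 0.787. Fibroblast markers, 6 of 8, summed to 79326 and 49144 with myoblasts and 62009 and 60849 in controls, and erythrocyte markers, 3 of 7, to 1817 and 1203 with myoblasts and 1113 and 888 in controls. Among the fibroblast markers TCF21 had ratios of 1.48 and 1.65, FAP 1.75 and 1.20, LUM 1.17 and 0.651, and DCN log2 ratios of 0.11 and -0.32. The erythrocyte markers differed in direction, with HBB at ratios of 1.73 and 1.57, HBM at 2.17 and 0.918 and ALAS2 at 0.832 and 0.451. Of the skeletal myoblast markers, 5 of 9 were measured and none was higher in both zones, with sums of 644 and 428 with myoblasts and 739 and 859 in controls and NCAM1 at ratios of 0.921 and 0.453; the porcine probe sets were not made for the RNA of the human graft.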

How the data were processed

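The authors labelled total RNA with the GeneChip 3'IVT Express Kit, hybridized it to Affymetrix Porcine Genome Arrays and made the signals with MAS 5.0 (MAS5 in the submitters' processing notes). What the authors deposited were log2 signals, whose values fit MAS 5.0 scaling: the mean of the linear signals, trimmed by 2% at each end, was about 500.1 on every array. No column of values was left out (0 unused), and no filter was applied.

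Symbols came from the platform annotation deposited for the array; probe sets with several symbols were not used for genes. All 17 member probe sets matched the same symbol by gene ID in the RefSeq table. For each gene the probe set of highest mean log2 signal stood for it. Ratios are myoblast minus control log2 signals of a zone, called at 2-fold without a test. Arrays have no read depth, and their number limits the precision. The calculation was tested on simulated data with planted changes. Members and gene lists were chosen with earlier results of these data known. Of each list, the text names up to 2 genes with the largest rise and 2 with the largest fall in the mean of the zones, among those above the median on all arrays, and other genes it names were chosen after their values were seen. Alternatives were quantile normalization, median centring, floors at the 25th percentile and the median of each array, all probe sets of a gene, bright probe sets only, and thresholds of 1.5-fold and 4-fold. Python 3.11.15, pandas 2.3.3 and numpy 2.4.6 were used. No sequences are given.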

Additional observations from a re-analysis of the deposited data

Results flagged for a closer look

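For 6 of the 17 member probe sets the ratio of myoblast over control lay on opposite sides of 1 in the zones, a difference between zones that was not tested, since each zone has 1 array per group. Over all probe sets of the array this held for 39.5%. The log2 ratio of the infarct zone minus that of the border zone was 0.38 for the brighter PECAM1 probe set, 0.23 for the brightest VWF probe set and -0.56 for ENG. For the dim probe sets it was 0.68 (VWF), 4.01 (KDR) and 5.58 (TEK), with every signal at 35.8 or less.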

How the results depend on the processing

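Each of the 10 genes kept the sign of its mean ratio over zones under quantile normalization, median centring and both floors; with floors at the 25th percentile and the array median, the mean was 2.34 and 0.45 for SELE (5.92 without) and 0.09 and 0.03 for KDR (0.54 without). In the single zones, no probe set that stood for a gene changed sign with quantile normalization or median centring; the dim probe sets of VWF (2) and TEK (1) did in the infarct zone. The activation median in the infarct zone was 0.48 with signals floored at the array medians, and the identity median in the border zone -0.13 over all probe sets of a gene. Median centring cannot change the difference of the activation and identity medians. Under the alternatives that could change it, that difference stayed positive in both zones but moved in size. It was 0.38 (border) and 0.93 (infarct) as deposited, 0.44 and 0.36 with the floor at the medians, and 0.70 and 0.74 over all probe sets of a gene. Member probe sets at least 2-fold apart numbered 4 (border) and 5 (infarct). They numbered 2 and 3 with a floor at the 25th percentile, 0 and 2 with a floor at the median, 1 and 3 with the brightest probe set of each gene only, 1 and 3 with bright probe sets only, 2 and 3 at 4-fold, 7 and 7 at 1.5-fold, and 4 and 4 with median centring. The cause of these changes was not tested beyond the settings' own construction. No replicate could be left out, and signals under the array medians limit what SELE in controls, KDR and the dim probe sets can show.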
